A study of Mus musculus with 8 samples.

Results

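Ion channels were examined as a group in microglia of mice that lack multifunctional protein-2 (MFP2). The group was defined by gene symbol: every probe set annotated to a single gene whose symbol begins with Kcn, Trpc, Trpm, Trpv, Clic, Clcn, Cacn or Scn, together with Hvcn1, Trpa1 and Piezo1. This spelling rule gave 167 genes out of 19938 tested, each represented by its brightest probe set over the 8 arrays. Of these, 160 encode channel subunits or channel-family proteins and 7 only share the spelling: the potassium channel regulator Kcnrg, the adaptor Trpc4ap, the splicing-related gene Scnm1 and the antisense or overlapping transcripts Trpc5os, Kcnd3os, Kcnmb4os1 and Kcnmb4os2.

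Microglia are the brain's resident macrophages. MFP2 is the product of Hsd17b4 and works in peroxisomes, where it takes part in the breakdown of very long-chain and branched fatty acids. The 4 knockout and 4 control arrays came from Swiss Webster mice aged 17 weeks and labelled female; the controls were labelled wild type, the labels name no treatment and do not say how the allele was made or which cells lack the gene. Sorting of whole-brain cells kept those high in CD11b and intermediate in CD45, so border macrophages and blood leukocytes with similar staining could be included. Whether every array stands for its own animal is not stated in the labels. The p-values therefore reflect only how far these particular samples varied, which may be technical.

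Ion channels set the membrane potential and let calcium, chloride and protons cross membranes. In microglia, potassium channels hold the resting potential, calcium-permeable TRP channels take part in signalling and motility, the proton channel Hvcn1 balances the charge moved by the NADPH oxidase, and chloride-proton exchangers of the CLC family serve endosomes and lysosomes. Most of the neuronal sodium and calcium channels are known for excitable cells.

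Expression is given on the log2 scale of the deposited values, on which 1 unit is a doubling, and changes are knockout minus control. Values of different genes come from different probes and are not compared with each other. "Higher", "lower", "rose" and "fell" mean an adjusted p under 0.05 in limma over all 19938 genes. Array medians lay between 6.03 and 6.15, no 2 arrays were identical, and the number of arrays limits the precision. Hsd17b4 fell by 2.88 ± 0.44 (SE), with knockout 2 at 7.20 and the other knockout arrays between 4.76 and 5.21. Control 1 did not match its female label (Xist at 6.80 against at least 10.55 on every other array, and the Y-linked Eif2s3y at 8.14 against at most 2.99). Control 3 lay nearer to the knockout arrays than the other controls did at the higher channel genes. Results that rest on these 3 arrays are therefore also given without them.

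A small part of the channel genes changed. Of the 167, 9 rose, 4 fell and 154 did not pass, so that 7.78% were called, against 9.55% of all genes tested. Higher genes were 9 of 167 where 5.38% of all genes were higher, and lower genes 4 of 167 where 4.17% were lower. The median change of the group was -0.02, as over all genes (-0.02), and 66 of the 167 changes were above 0. An unadjusted p under 0.05 was found for 25 of the 167 and for 4196 of the 19938 genes tested. Counts at that p in the families and lists below are to be read beside these. The 13 called genes are Clic4, Trpc4, Kcnj2, Cacna1a, Trpv4, Kcnj10, Clcn7, Cacna1d and Hvcn1, higher, and Kcnrg, Clcn5, Kcnd1 and Kcnk12, lower. The probe set of each lists a RefSeq transcript of its gene.

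**Figure D1:**
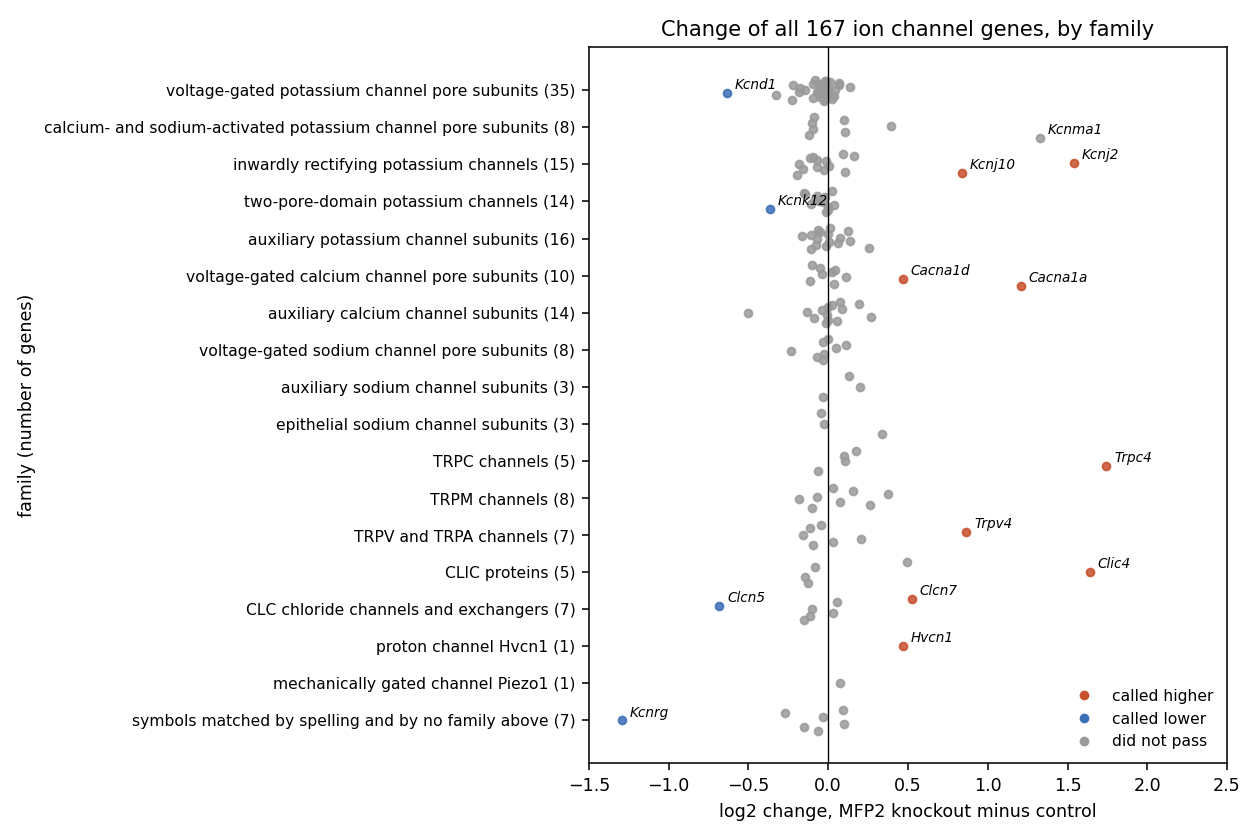
Log2 change (MFP2 knockout minus control, horizontal axis) of each of the 167 genes, one point per gene, in rows by family with the number of genes in brackets; red points were called higher, blue lower, and grey did not pass. Most points lie close to 0, and the called genes are spread over 10 of the 18 rows.

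Many of these genes were dim. Of the 167, 68 had a mean over all 8 arrays above 5.63, the level that 95% of 1027 olfactory receptor genes stay under, and 99 did not. Olfactory receptors served as genes not used by these cells. Probes differ in brightness, so a gene under that level is not shown to be silent, and changes of dim genes can be understated. All 13 called genes had a mean above it, which is 19.1% of the 68, against 14.6% of all genes above the level. Of the 99 dimmer channel genes 0 were called in limma, with 4 at an unadjusted p under 0.05. Over all genes, 1798 of the 1905 called lay above the level, as did 12322 of the 19938 tested. Few dim genes of any kind were thus called. The level uses all 8 arrays, so a gene can pass through the group where it is high: the control mean of Trpc4, 5.05, was under it. The 8 voltage-gated sodium channel pore genes show the dim side: 1 of them, Scn2a, was above the level, and only at its brightest probe set.

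The promoters of 5 called genes are shown to set 4 genes that rose, Clic4, Clcn7 and the inward rectifiers Kcnj2 and Kcnj10, beside Kcnrg, the gene that fell most. They are the RefSeq promoter windows of build GRCm38.p6, 300 bases from 250 before to 50 after a start site, read 5′ to 3′ on the gene's strand. Of the 2 windows listed for Clcn7, the one that holds E-boxes is shown. A window was listed for 131 of the 167 genes and for 10 of the 13 called. Capitals mark the GC box GGGCGG, the CCAAT box CCAAT and the E-box CACGTG, searched on both strands. The windows lie at chr4:135272711-135273010 (minus strand) for Clic4, chr11:111065914-111066213 (plus) for Kcnj2, chr1:172340960-172341259 (plus) for Kcnj10, chr17:25133141-25133440 (plus) for Clcn7, and chr14:61607207-61607506 (plus) for Kcnrg.
Clic4: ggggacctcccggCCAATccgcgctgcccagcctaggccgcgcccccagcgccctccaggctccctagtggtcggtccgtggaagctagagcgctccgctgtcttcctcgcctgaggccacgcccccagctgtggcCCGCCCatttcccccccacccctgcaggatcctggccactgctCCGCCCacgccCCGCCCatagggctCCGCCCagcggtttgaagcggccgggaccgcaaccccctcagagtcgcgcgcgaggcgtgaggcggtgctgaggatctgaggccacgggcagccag
Kcnj2: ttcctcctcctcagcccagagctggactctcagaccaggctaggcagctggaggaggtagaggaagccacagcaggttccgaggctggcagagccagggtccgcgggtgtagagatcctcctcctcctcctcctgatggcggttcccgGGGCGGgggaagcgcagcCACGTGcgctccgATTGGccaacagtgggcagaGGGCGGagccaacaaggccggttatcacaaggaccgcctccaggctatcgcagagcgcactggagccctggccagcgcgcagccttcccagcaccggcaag
Kcnj10: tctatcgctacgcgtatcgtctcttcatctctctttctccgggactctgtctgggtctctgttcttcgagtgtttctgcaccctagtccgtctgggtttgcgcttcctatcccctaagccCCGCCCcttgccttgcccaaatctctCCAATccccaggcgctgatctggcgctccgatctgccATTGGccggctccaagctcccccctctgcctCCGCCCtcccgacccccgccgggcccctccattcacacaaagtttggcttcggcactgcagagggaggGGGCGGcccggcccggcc
Clcn7: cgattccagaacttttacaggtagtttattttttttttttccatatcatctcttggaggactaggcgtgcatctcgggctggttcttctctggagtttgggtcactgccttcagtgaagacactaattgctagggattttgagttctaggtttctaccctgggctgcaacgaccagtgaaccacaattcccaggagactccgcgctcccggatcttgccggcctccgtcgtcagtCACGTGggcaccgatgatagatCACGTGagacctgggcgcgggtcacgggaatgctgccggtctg
Kcnrg: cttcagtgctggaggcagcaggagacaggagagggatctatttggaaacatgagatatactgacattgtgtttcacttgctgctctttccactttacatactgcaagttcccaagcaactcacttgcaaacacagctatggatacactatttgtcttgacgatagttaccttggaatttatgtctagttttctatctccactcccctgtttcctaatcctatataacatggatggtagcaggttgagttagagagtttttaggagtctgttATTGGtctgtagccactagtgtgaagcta

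The windows differ in their letters. The Clic4 window holds 4 GC boxes and 1 CCAAT box, that of Kcnj2 has 2 GC boxes, 1 CCAAT box and 1 E-box, and that of Kcnj10 has 3 GC boxes and 2 CCAAT boxes. The Clcn7 window holds 2 E-boxes and no GC box, and that of Kcnrg 1 CCAAT box and nothing else of the 3. One of the Clcn7 E-boxes is the longer palindrome TCACGTGA, which contains CACGTG and resembles the element bound by regulators of lysosomal genes. That palindrome is in 1.12% of the 27025 genes with a listed window and in 3 of the 131 channel genes with one, Clcn6, Clcn7 and Trpm7. Of these 3, Clcn7 rose, and Clcn6 (0.06) and Trpm7 (0.15) did not pass. Over the same genes, 56.5% of channel genes and 38.2% of all genes had a GC box, 32.8% and 41.1% a CCAAT box, 9.16% and 8.09% an E-box, and 30.5% and 31.3% the ETS-type sequence GAGGAA. A match describes the letters of these windows only.

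Among the potassium channels, 2 inward rectifiers rose, 2 genes of other families fell and 68 of 72 pore genes did not pass. Of these pore genes 5.56% were called, against 9.55% of all genes. The called ones were among 30 of the 72 above the dim-gene level, where 14.6% of all genes were called. Kcnj2 encodes Kir2.1, an inward rectifier that holds the membrane near the potassium potential. It read 7.02, 7.20, 7.89 and 6.58 in the controls and 8.65, 8.62, 8.73 and 8.86 in the knockouts, each in the order of the replicate numbers, as for all genes that follow. Every knockout array was above every control array, control 3 was the highest control and control 4 the lowest, and the controls spread more than the knockouts (SD 0.54 against 0.11). The change was 1.54 ± 0.21 (SE), or 2.91-fold (limma adjusted p = 0.000763, n = 4 and 4), and it was 1.78 without control 3.

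Kcnj10 encodes Kir4.1, the inward rectifier known in brain for potassium uptake by astrocytes. It read 6.46, 6.52, 6.74 and 6.18 in the controls and 7.36, 7.35, 7.21 and 7.33 in the knockouts. The knockout arrays were nearly level, and all lay above every control. The change was 0.84 ± 0.11 (SE), 1.79-fold (limma adjusted p = 0.000776). Of 8 astrocyte markers, Gfap (1.28) and Aldoc (0.76) were higher and 6 did not pass. Changes were above 0 for 4 of the 8, these 2 and Slc1a2 (0.26) and Aldh1l1 (0.27). The same 4 had an unadjusted p under 0.05 in limma. Those below 0 included Gja1 (-0.70) and Slc1a3 (-0.10). Aqp4, Gjb6 and Aldh1l1 were at or under the dim-gene level, and the mean of the 8 ran from 5.86 to 5.94 in controls and from 5.98 to 6.26 in knockouts. Whether this bears on Kcnj10 was not tested. In these bulk samples fewer cells of a type and less RNA per cell cannot be told apart. The other 13 inward rectifiers did not pass. They include the chromosomal neighbours of the called pair, Kcnj9 next to Kcnj10 (0.09) and Kcnj16 next to Kcnj2 (-0.18, adjusted p = 0.227). Kcnj8, a subunit of ATP-sensitive channels, had a difference of 0.16 (adjusted p = 0.561).

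The 2 lower pore genes were Kcnd1 and Kcnk12. Kcnd1 encodes Kv4.1, a fast-inactivating voltage-gated channel, and read 8.78, 8.88, 8.39 and 8.33 in the controls and 8.02, 7.91, 7.66 and 8.24 in the knockouts. The groups did not overlap, but control 4 stood only slightly above knockout 4. Kcnd1 fell by 0.63 ± 0.15 (SE, 1.55-fold lower, limma adjusted p = 0.0178). The call was lost without control 1 (adjusted p = 0.0587), control 2 (0.0634) or knockout 3 (0.0590). It was the only called gene of 35 voltage-gated pore genes, whose median change was -0.04. The lymphocyte and microglial channel Kcna3, or Kv1.3, had a difference of -0.02 with a 95% interval from -0.28 to 0.23.

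Kcnk12 encodes THIK-2, a two-pore-domain channel closely related to Kcnk13, or THIK-1, the background potassium channel known for resting microglia. Kcnk12 read 7.26, 7.30, 7.13 and 7.14 in the controls and 6.80, 6.89, 6.80 and 6.86 in the knockouts. Both groups were narrow and did not overlap, and the gene fell by 0.37 ± 0.08 (SE, 1.29-fold lower, limma adjusted p = 0.0135). Kcnk13 read 8.03, 7.99, 7.78 and 8.07 in the controls and 7.80, 8.08, 7.94 and 8.04 in the knockouts. Its groups lay on top of each other, with a difference of -0.0042 and a 95% interval from -0.22 to 0.21. The difference between the changes of Kcnk12 and Kcnk13 was not tested. Kcnk6, or TWIK-2, a potassium exit path in macrophages, had a difference of -0.15 (interval -0.38 to 0.09, adjusted p = 0.511), with control 1 highest at 11.03.

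None of the 8 calcium- and sodium-activated pore genes passed in limma, with 1 at an unadjusted p under 0.05. Of the 8, 4 were above the dim-gene level. Kcnn4 encodes KCa3.1, a calcium-activated channel of activated microglia and lymphocytes. It read 6.25, 6.44, 6.61 and 6.20 in the controls and 6.33, 6.39, 6.996 and 7.34 in the knockouts. Knockouts 3 and 4 were above every control while knockouts 1 and 2 were within the control range. The difference of 0.39 had an interval from -0.04 to 0.82 (adjusted p = 0.294). Kcnn3 had a difference of -0.09 (adjusted p = 0.640). Of 16 auxiliary potassium channel subunits, 2 were above the dim-gene level. None of the 16 passed in limma, where 9.55% of all genes did, and 0 had an unadjusted p under 0.05. The lowest p belonged to the beta subunit Kcnab2 (0.26, adjusted p = 0.268).

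Kcnma1, the large-conductance calcium-activated channel, came out differently by probe set. The brighter probe set (10582545) read 10.75, 11.67, 11.52 and 9.54 in the controls and 12.73, 11.60, 11.86 and 12.60 in the knockouts. The groups overlapped at knockout 2, and the controls spread widest of all channel genes above the dim-gene level (SD 0.97). The difference of 1.33 ± 0.40 (SE) did not pass (limma adjusted p = 0.0586). It passed in 6 of 19 alternatives, among them without control 2, control 3 or knockout 2, and was 0.89 without control 4. The other probe set (10418053) read 7.74 on average in controls and 7.72 in knockouts, a difference of -0.01. The brighter probe set lists 4 accessions, and 0 of them are RefSeq transcripts of Kcnma1, while the other lists 20, of which 17 are. The brighter one is thus tied to Kcnma1 by the platform annotation alone.

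**Figure D2:**
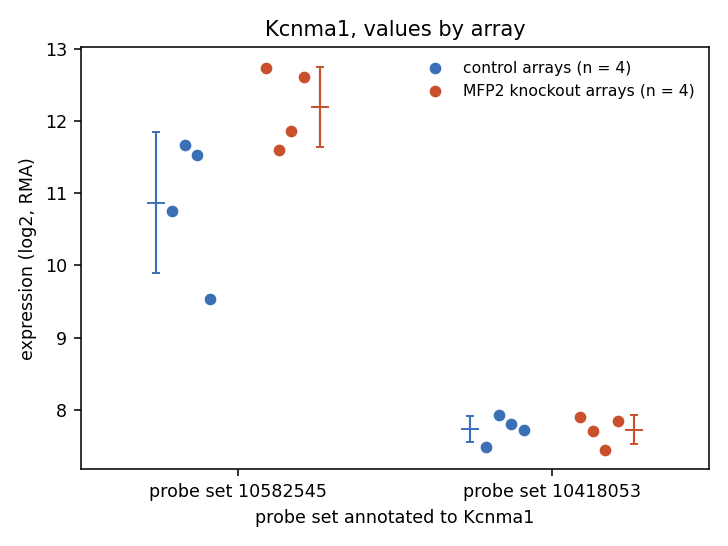
Log2 expression (vertical axis) at the 2 probe sets annotated to Kcnma1, one point per array, blue for control and red for MFP2 knockout, with the mean and SD of 4 arrays beside the points. The brighter probe set runs from 9.54 to 12.73 and differs by 1.33 between group means, while the other differs by -0.01.

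Kcnrg, a soluble protein known to reduce the assembly of voltage-gated potassium channels, had the lowest change of the 167 genes. It read 9.45, 9.66, 9.16 and 8.59 in the controls and 8.21, 8.31, 7.59 and 7.58 in the knockouts. Knockouts 3 and 4 were the lowest, control 4 the nearest control, and the groups did not overlap. Kcnrg fell by 1.29 ± 0.23 (SE, 2.45-fold lower, limma adjusted p = 0.00336). The gene overlaps Trim13 and Dleu2 in the RefSeq annotation. Trim13 had a difference of -0.48 (adjusted p = 0.108) and Dleu2 one of -0.10 (adjusted p = 0.810), and the probes may not separate the signal of overlapping transcripts.

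Of the voltage-gated calcium channels, 2 of 10 pore genes rose and none of 14 auxiliary genes passed in limma, with 2 at an unadjusted p under 0.05. In the small pore family that is 20% called, against 9.55% of all genes. Above the dim-gene level were 3 of the 10 pore genes and 8 of the 14 auxiliary genes. Cacna1a encodes the pore of P/Q-type channels, best known at nerve terminals. It read 7.63, 7.55, 7.98 and 7.43 in the controls and 9.04, 8.61, 8.86 and 8.91 in the knockouts. Control 3 was the highest control and knockout 2 the lowest knockout, and the groups stayed clearly apart. The change was 1.21 ± 0.13 (SE), 2.31-fold (limma adjusted p = 0.00029). Without control 3 and knockout 2 it was 1.40. Cacna1d, the pore of the L-type channel Cav1.3, read 7.60, 7.73, 7.67 and 7.69 in the controls and 8.23, 8.02, 7.91 and 8.41 in the knockouts. The controls were tight and the knockouts spread above them. It rose by 0.47 ± 0.11 (SE, 1.38-fold, adjusted p = 0.0184), and the call was lost without control 1 (adjusted p = 0.0586).

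The 10 neuronal markers on the list were read beside these neuron-associated channels. None of them passed in limma. The 1 at an unadjusted p under 0.05 was Snap25 (0.35), above the dim-gene level, with groups that did not overlap. Changes were above 0 for 5 of the 10, and 7 of the 10, among them Rbfox3, Syt1 and Gad2, were at or under that level. The mean of the 10 ran from 5.16 to 5.35 in controls and from 5.23 to 5.35 in knockouts. The L-type gene Cacna1c was at or under the dim-gene level and had a difference of -0.11 (adjusted p = 0.479). Among the auxiliary genes, Cacnb4 read 6.51, 6.96, 6.38 and 7.004 in the controls and 6.40, 5.93, 6.32 and 6.19 in the knockouts. Control 3 and knockout 1 overlapped, and the difference of -0.50 ± 0.15 (SE) missed the threshold (limma adjusted p = 0.0579). Cacnb4 passed in 5 of 19 alternatives, among them without control 3 or knockout 1. 

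Sodium channels had no call in limma: 0 of 8 voltage-gated pore genes, 0 of 3 auxiliary genes and 0 of 3 epithelial subunits, with 1, 0 and 1 at an unadjusted p under 0.05. Of all genes 9.55% were called. In the same order, 1, 0 and 1 of these genes were above the dim-gene level, and no channel gene at or under it was called. Scn2a, with 14 probe sets, had a difference of -0.24 at the brightest (adjusted p = 0.210) and of 0.0016 when the probe sets were averaged. The brightest had a mean of 6.13 and the others at most 4.85, under the dim-gene level. The auxiliary Scn3b had a difference of 0.20 (adjusted p = 0.313). The epithelial subunit Scnn1a had a difference of 0.34 (adjusted p = 0.115) and passed without knockout 2 and without control 3 and knockout 2 together.

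Among the 20 TRP channels, 2 rose and 0 fell, so that 10% were called, near the 9.55% of all genes. Of the 20, 6 were above the dim-gene level. Trpc4, a calcium-permeable channel opened downstream of receptors that activate phospholipase C, had the highest change of the 167 genes. It read 4.76, 5.04, 5.66 and 4.72 in the controls and 6.34, 6.61, 7.10 and 7.10 in the knockouts. Control 3 was the highest control, and every knockout was above it. The change was 1.74 ± 0.22 (SE), 3.35-fold (limma adjusted p = 0.000505). Its 4 measured relatives did not pass. The difference was -0.06 for Trpc1, 0.10 for Trpc6 and 0.10 for the close homologue Trpc5 (adjusted p = 0.744).

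Trpv4, a calcium-permeable channel that responds to warmth and cell swelling, read 6.41, 6.76, 6.85 and 6.55 in the controls and 7.91, 7.08, 7.38 and 7.68 in the knockouts. Knockout 2 was the lowest knockout and control 3 the highest control. The change was 0.87 ± 0.16 (SE), 1.82-fold (limma adjusted p = 0.0051). It was 1.08 without control 3 and knockout 2. Trpv2, a channel of macrophages used in phagocytosis, had a difference of 0.20 (interval -0.05 to 0.45), and Trpv1, at or under the dim-gene level, one of 0.03.

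None of the 8 TRPM genes passed in limma, with 3 at an unadjusted p under 0.05, against 4196 of 19938 over all genes. Of the 8, 3 were above the dim-gene level. Trpm2, which opens on oxidative stress, read 8.64, 8.51, 8.58 and 8.39 in the controls and 8.92, 8.77, 8.52 and 8.95 in the knockouts. Knockout 3 was within the control range while the other knockouts were above it, and the difference was 0.26 (adjusted p = 0.190). Trpm4, a sodium-passing channel opened by calcium, did not overlap between groups (6.85 to 7.02 in knockouts, 7.06 to 7.22 in controls), yet its difference of -0.18 did not pass (adjusted p = 0.225). The channel kinase Trpm7 had a difference of 0.15 (adjusted p = 0.467). Trpm6, at or under the dim-gene level, had a difference of 0.37 (adjusted p = 0.127), with knockout 4 at 5.43 and the other knockouts between 4.75 and 4.83. Groups did not overlap for 18 of the 167 channel genes, against 14% of all genes.

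Clic4 had the lowest p of the group. It belongs to the CLIC proteins, which exist in soluble and membrane-bound forms. It read 7.54, 7.30, 7.91 and 7.54 in the controls and 9.17, 9.17, 9.18 and 9.33 in the knockouts. The knockout arrays were nearly level, control 3 was the highest control, and the groups stayed far apart. The change was 1.64 ± 0.12 (SE), 3.12-fold (limma adjusted p = 9.05e-05), and ran from 1.55 to 1.81 over 19 alternatives. The other 4 CLIC genes did not pass. Clic1, studied in microglia for its chloride current, had a difference of -0.13 (interval -0.32 to 0.07), and Clic6 one of 0.49 (adjusted p = 0.376) with knockout 4 at 6.11 and the other knockouts at or below 5.21. Clic6 is named after its values were seen.

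**Figure D3:**
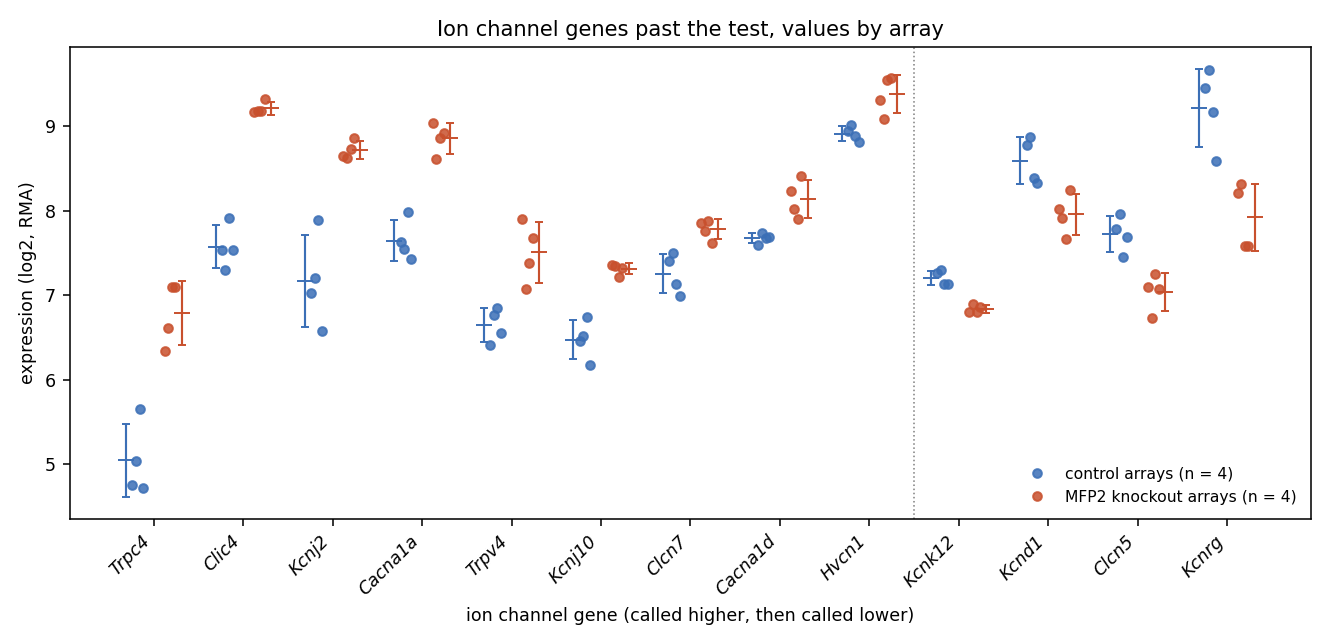
Log2 expression (vertical axis) of the 13 called channel genes (horizontal axis, from the highest to the lowest change), one point per array, blue for control and red for MFP2 knockout, with the mean and SD of 4 arrays beside the points. Kcnj2 shows the widest control spread (SD 0.54), and for Kcnd1 control 4 (8.33) and knockout 4 (8.24) nearly meet.

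The CLC family had a call in each direction, both chloride-proton exchangers of internal membranes. Of its 7 genes 28.6% were called, against 9.55% of all genes. All 7 were above the dim-gene level, where the share over all genes was 14.6%. Clcn7, the lysosomal exchanger, read 7.40, 7.50, 7.13 and 6.99 in the controls and 7.86, 7.76, 7.88 and 7.62 in the knockouts. The groups did not overlap, with controls 1 and 2 closest to the knockouts. Clcn7 rose by 0.52 ± 0.12 (SE, 1.44-fold, limma adjusted p = 0.0149). The call was lost without knockout 3 (adjusted p = 0.0513) and without control 3 and knockout 2 together (0.0698). Its partner subunit Ostm1 had a difference of 0.31 (adjusted p = 0.0762).

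Clcn5, the exchanger of endosomes, read 7.78, 7.96, 7.45 and 7.69 in the controls and 7.10, 6.73, 7.25 and 7.07 in the knockouts. Control 3 and knockout 3 were the nearest values, and the groups did not overlap. Clcn5 fell by 0.68 ± 0.13 (SE, 1.60-fold lower, limma adjusted p = 0.00582). Clcn5 and Kcnd1 are 2 of the 6 genes of the group on the X chromosome. Without control 1, the array at odds with its sex label, Clcn5 was still lower (-0.66, adjusted p = 0.0213) and Kcnd1 was at -0.57 (adjusted p = 0.0587). The other 5 CLC genes did not pass, among them the endosomal Clcn3 (0.03, interval -0.22 to 0.28).

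Hvcn1, the voltage-gated proton channel, read 8.94, 9.01, 8.88 and 8.81 in the controls and 9.31, 9.08, 9.55 and 9.57 in the knockouts. Knockout 2 was only just above control 2, and the groups did not overlap. The change was 0.47 ± 0.11 (SE), 1.38-fold (limma adjusted p = 0.0213). Leaving out control 1 ended the call (adjusted p = 0.0505), as did leaving out control 4 (0.0669), knockout 3 (0.0748) or knockout 4 (0.0614). Piezo1, a mechanically gated cation channel, had a difference of 0.07 at its brightest probe set (interval -0.20 to 0.34) and of -0.08 and -0.09 at the other probe sets.

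A list of channels described in microglia was read as a whole, with 23 of them measured. Of these, 5 rose (Clic4, Kcnj2, Trpv4, Clcn7 and Hvcn1), 0 fell and 18 did not pass, so that 21.7% of the list were called, against 9.55% of all genes. The median change was 0.07, against -0.02 over all genes, and 18 of the 23 were above the dim-gene level, where 14.6% of all genes were called. The list was chosen with earlier results of these data known, so its share is not independent of them. The count describes the list and was not tested against other genes. Kcna5 (-0.10, adjusted p = 0.777), like Trpc1, Trpc6, Trpv1 and Cacna1c, was at or under the dim-gene level.

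**Figure D4:**
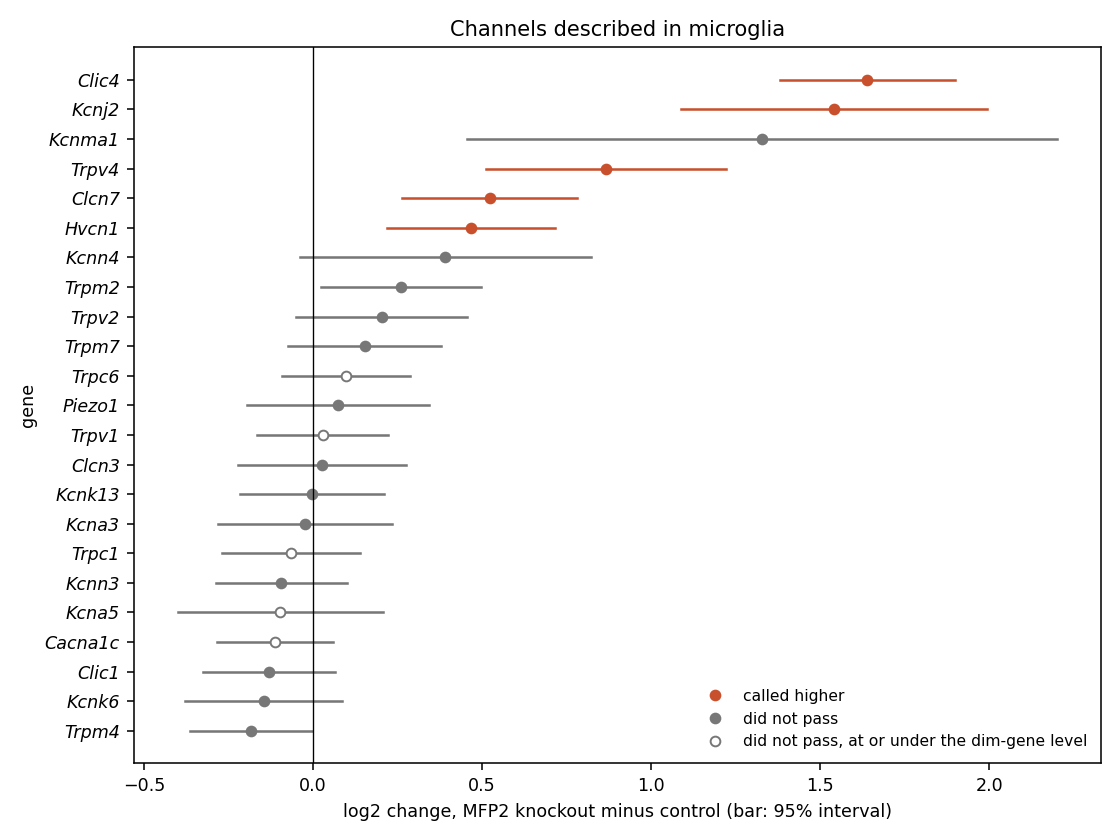
Log2 change with its 95% interval (horizontal axis, MFP2 knockout minus control, n = 4 and 4) for 23 channels described in microglia (vertical axis); red genes were called higher, and open circles are at or under the dim-gene level. The intervals of Kcnk13 (-0.22 to 0.21) and Kcna3 (-0.28 to 0.23) straddle 0, and Kcnma1 has the widest one (0.46 to 2.20) without being called.

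Other channels and ion transporters outside the spelling rule were read from 7 lists. Of 124 listed genes 108 were measured, and 5 rose and 7 fell, 11.1% of them against 9.55% of all genes. In the store-operated and calcium release list Stim2, a calcium sensor of the endoplasmic reticulum, rose by 0.54 ± 0.13 (SE), while the release channels Itpr2 (-0.55) and Ryr2 (-0.42) fell. Itpr2 kept its call in 19 of 19 alternatives and Ryr2 in 13 of 18. Stim2 and Ryr2 each lost their call without control 1, control 4, knockout 3 or knockout 4 (limma adjusted p from 0.0593 to 0.0770). Orai1, the pore that Stim proteins open, was at -0.32 (adjusted p = 0.0550). In the endolysosomal list Mcoln2, a cation channel of endosomes, rose by 0.66 and 6 others did not pass. Ryr2 and Mcoln2 had means at or under the dim-gene level.

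Among anion channels Ttyh2 rose by 1.13 ± 0.16 (SE, limma adjusted p = 0.00109) and Lrrc8d, a subunit of volume-regulated channels, by 0.50. In the list of HCN, CNG, ASIC, polycystin and leak channels the membrane protein Tmc7 fell by 0.70 and Tmem63a, a channel opened by osmotic stretch, by 0.38. The sodium-proton exchanger Slc9a9 of endosomes fell by 0.76, the potassium-dependent sodium-calcium exchanger Slc24a3 by 0.56 and the sodium-calcium exchanger Slc8a1 by 0.43. Tmc7 lost its call without control 2 or knockout 3, and Tmem63a without control 1, knockout 2 or knockout 3. Slc8a1 was called in 10 of 19 alternatives and lost its call without any one of controls 1, 2 and 4 and knockouts 1, 2 and 3. Smdt1, which couples the mitochondrial calcium uniporter to its gatekeepers, rose by 0.62. Without controls 1 and 3 and knockout 2 together, Lrrc8d, Smdt1, Tmc7, Tmem63a, Slc8a1 and Ryr2 lost their calls (limma adjusted p from 0.0655 to 0.158). Tmem63a (adjusted p = 0.0572) and Slc8a1 (0.0727) also lost theirs without control 3 and knockout 2. None of 11 pannexins and connexins passed in limma, and 4 of the 11 were above the dim-gene level. Of these 11, 0 had an unadjusted p under 0.05. Over the 7 lists 4 genes fell without control 1 and 3 without knockout 3.

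The labelled cell type was read from its defining markers. All 9 measured microglial markers were above the dim-gene level, with a mean from 11.68 to 11.90 in controls and 11.23 to 11.41 in knockouts, and 7 of them fell. Of 7 border macrophage markers 4 fell (Pf4, Mrc1, Lyve1 and F13a1) and Siglec1 rose, and their mean ran from 6.49 to 7.09 in controls and 5.99 to 6.53 in knockouts. The mean of 7 neutrophil markers ran from 7.96 to 10.83 in controls and 9.02 to 9.96 in knockouts. Of 6 endothelial markers Flt1 rose (1.99), while Cdh5, Tek and Slco1c1 were at or under the dim-gene level. Cldn5 (-0.10) and Kdr (-0.07), above that level, did not pass, and the median change of the 6 was -0.04. Of the remaining lists, 1 of 7 oligodendrocyte and 1 of 4 precursor markers rose, 1 of 4 monocyte markers fell, and 0 of 7 pericyte, 0 of 7 neutrophil, 0 of 5 T cell and 0 of 3 B cell markers passed in limma, with 2, 0, 1 and 0 at an unadjusted p under 0.05. The part of these markers in the channel results was not tested.

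Arrays differed in how far they stood along the changes. The value of each array was set on a scale from the control mean (0%) to the knockout mean (100%), and the median was taken over the 9 higher channel genes. Control 3 stood at 23.8%, the other controls between -18.5% and 5.69%, knockout 2 at 89.9% and the other knockouts between 100% and 109%. Over the 4 lower genes controls 3 and 4 stood at 25.7% and 30.8% and knockout 3 at 118%. These positions use the genes and arrays of the test and are a description. Without control 3 and knockout 2 together, 12 of the 13 calls were kept (Clcn7 was lost). Cacnb4, Scnn1a and the brighter probe set of Kcnma1 were added. Without control 1 as well, 9 were kept, and Cacna1d, Clcn7, Kcnd1 and Kcnk12 (adjusted p = 0.109 for the last) were lost.

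**Figure D5:**
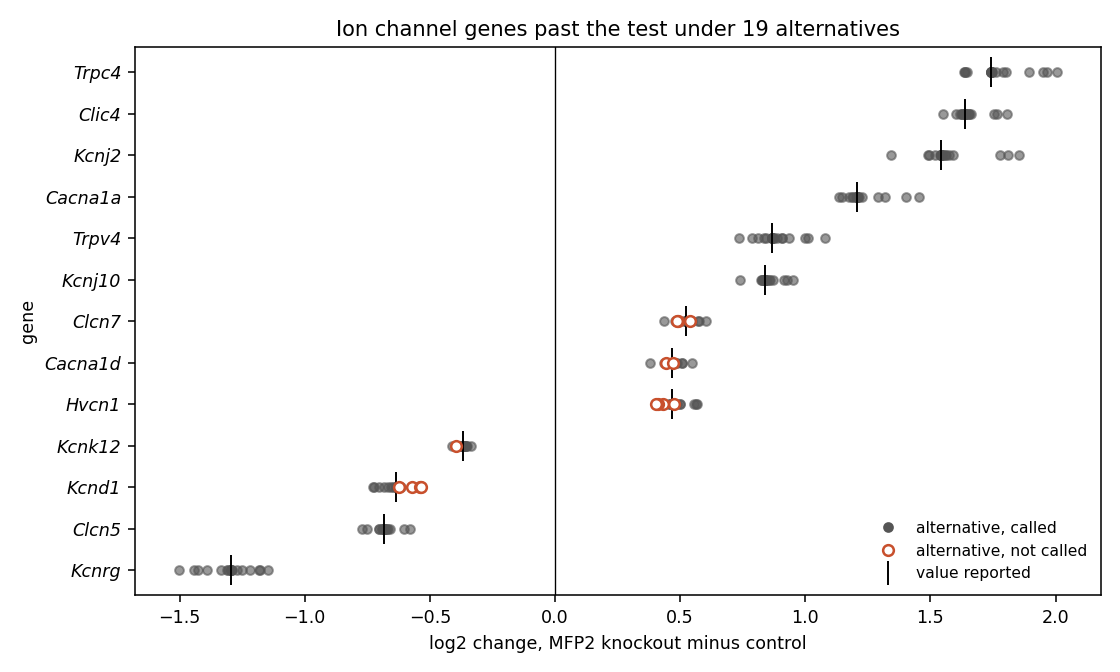
Log2 change (horizontal axis, MFP2 knockout minus control) of each of the 13 called genes (vertical axis) under 19 alternative settings; filled grey points were called, open red circles were not, and the black tick is the reported value. Clic4, Trpc4, Kcnj2, Cacna1a, Trpv4, Kcnj10, Clcn5 and Kcnrg were called in all 19, and no gene changed sign.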

How the data were processed

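RNA of sorted microglia was measured on 8 microarrays, 4 MFP2 knockout and 4 control, from 5.775 ng of total RNA per sample (integrity number at least 8) amplified with NuGEN kits, per the labels' protocols. The submitters' processing notes name RMA for the deposited log2 values, with software and version not given in the sources. Base 2 was taken from the values, which run from 2.04 to 13.99. Since RMA gives arrays a common distribution, a shift of every gene would be hidden.

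Of 28874 probe sets, 21789 carry 1 gene symbol in the platform annotation, 1621 several and 5464 none; 21698 matched RefSeq by gene number and 0 symbols changed. A gene was represented by its probe set with the highest mean, giving 19938 genes, and 0 columns were left unmatched. Knockout and control were compared with limma 3.58.1 in R 4.3.3 (lmFit, eBayes, no covariate, two-sided) and p-values adjusted by Benjamini-Hochberg across the 19938 genes, called under 0.05. The dim-gene level, 5.63, is the 95th percentile of the means of 1027 genes named Olfr and removed no gene from the test. Intervals are 95% intervals of that fit. The same replicate numbers occur in both groups, but deviations from the group means correlated at 0.16, -0.06, 0.01 and 0.01 within the 4 numbers, so the numbers were not taken as pairs.

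Genes were named by rule: all called members, the measured genes of the microglial channel list, the lowest p of each family without a call, members without overlap and a change of at least 0.5, up to 4 called genes of each further list, and Hsd17b4. Genes outside it (Kcnj8, Kcnj9, Kcnj16, Trpc5, Clic6, Clcn6, Ostm1, Orai1, Trim13, Dleu2, the called neighbours Postn, Gltp, Runx3, Spryd7 and Pptc7, cell type markers and the sex-check genes) were named after their values were seen. The members and lists were chosen with earlier results of these data known, and the promoter motifs after the windows had been searched. Alternatives covered scaling (quantile, median, cyclic loess), a filter on dim genes, probe sets averaged or all kept, array weights, a robust prior with an intensity trend, the replicate block, each array left out, control 3 with knockout 2 and also control 1 left out, and thresholds of 0.01 or 1.5-fold. Figures used matplotlib 3.10.9 in Python 3.11.15.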

Additional observations from a re-analysis of the deposited data

Results flagged for a closer look

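In 6 of 100 groups of 4 arrays looked at (the named genes in each genotype), 1 array stood apart by a gap rule. Its gap to the nearest value was over 0.829 of the range of the 4, where chance gives about 1 in 20. The rule is relative to the range, so a small gap in a tight group passes, as for Clic4. In knockouts, Clic4 was at 9.33 in knockout 4 with the next value at 9.18, Trpm6 at 5.43 in knockout 4 with the next at 4.83, Trpm7 at 7.72 in knockout 2 with the next at 7.89, Itpr2 at 9.17 in knockout 3 with the next at 9.38, and Slc24a3 at 6.73 in knockout 1 with the next at 6.91. In controls, Kcnn3 was at 5.95 in control 2 with the next at 6.11. The 6 came from 5 different arrays.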

How the results depend on the processing

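All 13 calls kept their direction in the 19 alternatives run for single genes, and 8 (Clic4, Trpc4, Kcnj2, Cacna1a, Trpv4, Kcnj10, Kcnrg and Clcn5) also kept an adjusted p under 0.05 in limma. With each array left out in turn, 7 to 11 channel genes were higher and 3 to 5 lower, and of the other channels and transporters 4 to 6 were higher and 3 to 8 lower. At an adjusted p under 0.01, 2 channel genes and 3 of the other genes were lower. Among the other genes, 3 were higher and 2 lower at a change of at least 1.5-fold, and 3 were higher and 3 lower without controls 1 and 3 and knockout 2. Without control 1, 4 of the other genes were lower. With the replicate number as a block, 9 channel genes rose and 4 fell, and the other genes gave 6 higher and 7 lower calls. Slc8a1 lost its call there (adjusted p = 0.0545). The correlations of deviations did not show a pairing by the 4 numbers, though they cannot exclude one. Of 8 arrays, 2 correlated best with their own number.

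Signs turned only for genes that did not pass. With each array left out in turn, the difference ran from -0.066 to 0.050 for Kcnk13, from -0.092 to 0.091 for Kcna3, from -0.19 to 0.038 for Kcna5, from -0.012 to 0.069 for Trpv1, from -0.0034 to 0.16 for Piezo1 and from -0.067 to 0.085 for Clcn3. Kcnk13 was at 0.012 with cyclic loess. Kcna3 was at 0.11 without control 3 and knockout 2, and at 0.12 without control 1 as well, where Trpc1 was at 0.0022. Piezo1 was at -0.034 with probe sets averaged and at -0.00051 without control 3 and knockout 2, and Scn2a at 0.0016 with probe sets averaged. The cause was not tested. Over all genes, 1073 were higher and 832 lower; with quantile scaling 1137 and 1055, with cyclic loess 1258 and 861, and with arrays centred on their medians 1045 and 711. Comparisons of 4 against 4 arrays and dim probes limit what could be detected.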

Other observations

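The genes next to the 13 called channel genes on the chromosomes, in RefSeq order, were read as a description: of 26 such genes 4 were higher and 1 was lower, where 9.55% of all genes were called. Postn, an extracellular matrix protein gene next to Trpc4, rose by 2.05 ± 0.36 (SE, limma adjusted p = 0.00344) and Gltp, a glycolipid transfer protein gene next to Trpv4, by 0.88. Runx3 next to Clic4 rose by 0.44, Spryd7 next to Kcnrg rose by 0.39 and Pptc7 next to Hvcn1 fell by 0.39. Of 10 genes that overlap a called channel gene, 0 passed in limma, with 3 at an unadjusted p under 0.05.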
